A study of Mus musculus with 8 samples.

Results

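The interferon signalling and response genes described here are 48 genes that carry or answer an interferon signal, taken by symbol from a given list out of 45777 genes counted in mouse colonic organoids. They comprise 5 receptor genes, 7 genes of STAT and IRF transcription factors (the regulators) and 36 genes known to be induced by interferon (the effectors). Of the 48, 45 had enough counts to be tested. Mx2, Gbp2 and Iigp1 did not pass the filter on low counts.

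Interferons are secreted proteins that put cells into an antiviral and antimicrobial state. Type I interferons bind IFNAR1 with IFNAR2, type II interferon binds IFNGR1 with IFNGR2, and type III interferon binds IFNLR1 with IL10RB. Janus kinases at these receptors phosphorylate STAT proteins, which enter the nucleus. Complexes that hold STAT2 and IRF9 bind the interferon-stimulated response element, while STAT dimers bind the gamma-activated site. In the gut, epithelial cells are a main target of type III interferon.

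The series asks about REG3A downstream of IL-22 in colitis and wound repair. Organoids are epithelial cultures grown in gel from isolated crypts. The KO organoids (Reg3aΔIEC, 4 libraries, here KO 5 to KO 8) came from C57BL/6J mice in which the loxP-flanked exons 2 to 4 of Reg3a were targeted by Cre recombinase under the Villin promoter, active in intestinal epithelium. The WT organoids (Reg3a fl/fl, 4 libraries, WT 13 to WT 16) carried the loxP sites and no Cre. All mice were males of 9 weeks, cultures were used up to passage 15, and cells were taken on day 3 after passage. Neither genotype received interferon or another treatment, so the values describe a resting state. The labels name in one place 1 mouse per genotype grown in 4 wells and in another 3 mice in technical triplicate. The p-values measure the spread between these libraries only, which may be technical, and genotype, mouse and organoid line cannot be told apart.

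Library totals ran from 37182098 to 49256171 counts. Reg3a had 0 counts in all 8 libraries, so it gave no check of the labels. Epithelial markers summed to 8010 to 8370 CPM (counts per 1e6, scaled between libraries) in KO and 7710 to 8200 CPM in WT, with Vil1 and Cdx2 called higher and 4 of 6 not called. The 10 immune markers summed to 28.8 to 44.5 CPM in KO and 30.8 to 43.4 CPM in WT, mostly Cd68, which was called lower, with Cd3e, Cd3d, Itgax and Ncr1 at 0 counts in every library. The 5 colonocyte markers summed to 1790 to 1900 CPM in KO and 846 to 1060 CPM in WT, mostly Car1. Of these markers 4 were called higher and 1 (Aqp8) lower. The 5 stem and cycling cell markers summed to 704 to 747 CPM in KO and 782 to 948 CPM in WT, with 4 called lower. Of the 5 goblet cell markers 3 were called lower, at sums of 101 to 126 CPM in KO and 141 to 184 CPM in WT. Enteroendocrine markers summed to 6.62 to 12.3 CPM in KO and 14.7 to 23.1 CPM in WT, with 2 of 4 called lower. The 4 tuft cell markers summed to at most 0.661 CPM in KO and 0.931 CPM in WT. Of them only Avil passed the filter on low counts, and it was called lower. Fibroblast markers reached at most 0.372 CPM in KO and 0.234 CPM in WT. Endothelial markers reached at most 1.32 CPM in KO and 0.0478 CPM in WT. The KO maxima of the immune, fibroblast and endothelial sums were all in KO 6. Endothelial markers had 0 counts in the other KO libraries, and Lyz2 had 9.91 CPM in KO 6 and 0 counts elsewhere. The part of cell makeup in the differences described here was not tested, and in bulk libraries fewer cells of a type and less RNA per cell cannot be told apart.

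The library KO 6 stood apart. It held 43 genes with at least 10 counts that had 0 counts in the other 7 libraries, against 0 to 6 such genes in each other library. Among them were Sftpc (1090 counts), Scgb1a1 (434), Sftpa1 (180) and Sftpb (150), best known from lung epithelium, and the myeloid gene Lyz2 (480). These genes were named after their values were seen. Without KO 6, the members called higher numbered 3 and those called lower 4, against 5 and 5 with it, and each member whose call depends on KO 6 is given both ways.

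Promoter sequences were set beside the roles. RefSeq windows of 300 bases (GRCm38.p6, from 250 bases before to 50 after an annotated start) were matched for 38 members, of which 8 had several windows. Windows of Oas2, Mx1, Mx2, Zbp1, Usp18, Parp9, Parp14, Iigp1, Ifi27 and Rtp4 were not used here. The core of the interferon-stimulated response element, GAAANNGAAA searched on both strands with overlapping matches counted, was found in a window of 13 of 26 effectors, 2 of 7 regulators and 0 of 5 receptors, beside 3.99% of 27025 genes. The gamma-activated site TTCNNNGAA, which reads alike on both strands, was found in 8 of 26 effectors, 3 of 7 regulators and 2 of 5 receptors, beside 9.55% of genes. A match describes letters in the window and is not a bound site. Shown here are the matches of the regulator Stat2, of the effectors Oas3 and Ifit1bl1, which were called between genotypes in opposite directions, and of 4 effectors that were not called. Each is read 5′ to 3′ along the gene's strand, with the element in capitals.
Stat2 (chr10:128270251-128270310, plus strand): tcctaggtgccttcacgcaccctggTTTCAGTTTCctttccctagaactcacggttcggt
Oas3 (chr5:120777700-120777759, minus strand): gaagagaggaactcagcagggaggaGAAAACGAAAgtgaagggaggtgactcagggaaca
Ifit1bl1 (chr19:34602038-34602097, minus strand): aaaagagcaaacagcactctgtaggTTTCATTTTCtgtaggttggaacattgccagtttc
Ifit1 (chr19:34640760-34640838, plus strand): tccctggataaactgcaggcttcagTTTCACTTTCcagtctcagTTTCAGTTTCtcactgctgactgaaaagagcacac
Isg15 (chr4:156200850-156200921, minus strand): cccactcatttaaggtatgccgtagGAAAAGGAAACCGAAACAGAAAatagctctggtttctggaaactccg
Rsad2 (chr12:26456538-26456597, minus strand): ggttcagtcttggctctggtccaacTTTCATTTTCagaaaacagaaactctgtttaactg
Igtp (chr11:58199497-58199556, plus strand): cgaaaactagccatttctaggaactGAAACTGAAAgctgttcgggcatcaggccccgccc

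In Oas3 the element began 75 bases before the annotated start. Ifit1 held a copy 104 and another 85 bases before it, and Isg15 held 3 overlapping copies. Ifit1bl1 held 1 copy in each window used for it, and these windows ended at 34602218 and 34599677. No window was used at 34662981, the far end of its RefSeq span. Of the effectors with a window, the element was found in 1 of 4 called higher in KO (Oas3), 1 of 3 called lower (Ifit1bl1) and 10 of 18 tested and not called.

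The resting level of the pathway was uneven across roles. Levels between genes are the authors' TPM (transcripts per 1e6), which account for transcript length. Mean TPM over the 8 libraries ran from 11.2 to 228 among receptors and from 12.2 to 83.0 among regulators. Tested effectors ran from 0.104 to 265 TPM, with a median of 5.90 TPM. The highest member was Lgals3bp, which encodes a secreted galectin-binding glycoprotein, at 296 ± 14.9 TPM in KO and 235 ± 14.1 TPM in WT (SD, n = 4 each). Next came Ifngr2 at 235 ± 1.74 TPM in KO and 221 ± 3.46 TPM in WT and Ifngr1 at 168 ± 3.50 TPM in KO and 179.9 ± 4.30 TPM in WT. Effectors differed widely in level. Isg15, which encodes a ubiquitin-like modifier, stood at 3.13 ± 0.397 TPM in KO and 3.02 ± 0.429 TPM in WT. Mx1 stood at 0.177 ± 0.0469 TPM in KO and 0.184 ± 0.0504 TPM in WT. By contrast, Oas1a, Bst2 and Isg20 averaged 28.8, 38.6 and 44.9 TPM over the 8 libraries. Of 21 interferon ligand genes listed, 20 had 0 counts in all 8 libraries and Ifnz had 0 to 2 counts. With 0 counts observed, a level of 3 counts, equal to 0.0607 to 0.0805 CPM by library, is still possible. If both mates of a read pair were counted, this limit is 6 counts or 0.121 to 0.161 CPM, and it covers counting error only.

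**Figure D1:**
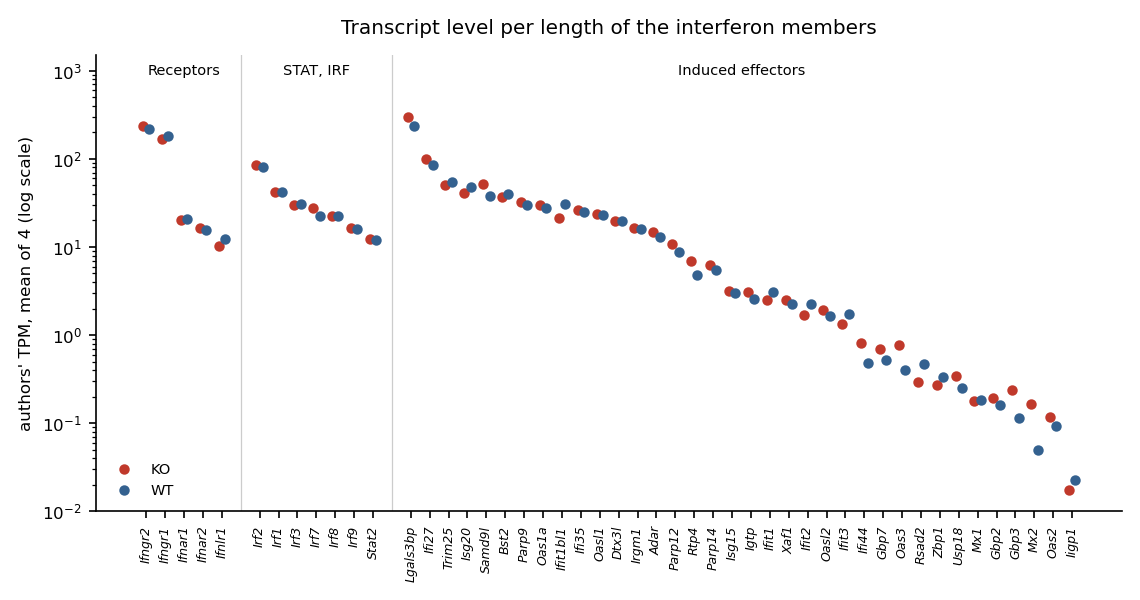
Mean authors' TPM of the 48 members on a log axis, KO in red left of WT in blue for each gene, arranged by receptors, STAT and IRF regulators, and induced effectors. Receptors lie between 11.2 and 228 TPM on average, while effectors spread from Lgals3bp at 296 TPM in KO and 235 TPM in WT down to Iigp1 at 0.0174 TPM in KO and 0.0225 TPM in WT.

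Between genotypes the calls among the members split evenly. At an adjusted p under 0.05 by edgeR over 14945 genes, 5 of 45 tested members were higher and 5 lower in KO. This is 22.2% of the tested members, beside 15.9% of all genes tested (7.63% higher and 8.26% lower). The median log2 ratio, KO over WT, was 0.021 over the members and -0.0012 over all genes tested. Receptors had 0 higher and 2 lower of 5, with a median of -0.023. Regulators had 1 higher and 0 lower of 7, with a median of -0.010, which was 0.011 without KO 8 and 0.013 without WT 14. Effectors had 4 higher and 3 lower of 33, with a median of 0.090. The KO and WT libraries did not overlap for 13 of the 45 tested members, 8 with KO above and 5 with KO below, beside 20.0% of all genes tested. Mx2, which was not tested, also had every KO library above every WT library. The difference between roles was not tested.

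Effectors covered a wider range of log2 ratios than receptors and regulators, with wider errors. Receptors lay between -0.29 and 0.074 and regulators between -0.11 and 0.29. Effectors ran from -0.72 (Rsad2) to 0.94 (Gbp3), and neither of these ends was called (adjusted p = 0.173 and 0.309, edgeR). The median SE of the log2 ratio was 0.050 for receptors, 0.056 for regulators and 0.14 for effectors. Of 33 tested effectors 17 averaged under 5 CPM, as did 0 receptors and 0 regulators.

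**Figure D2:**
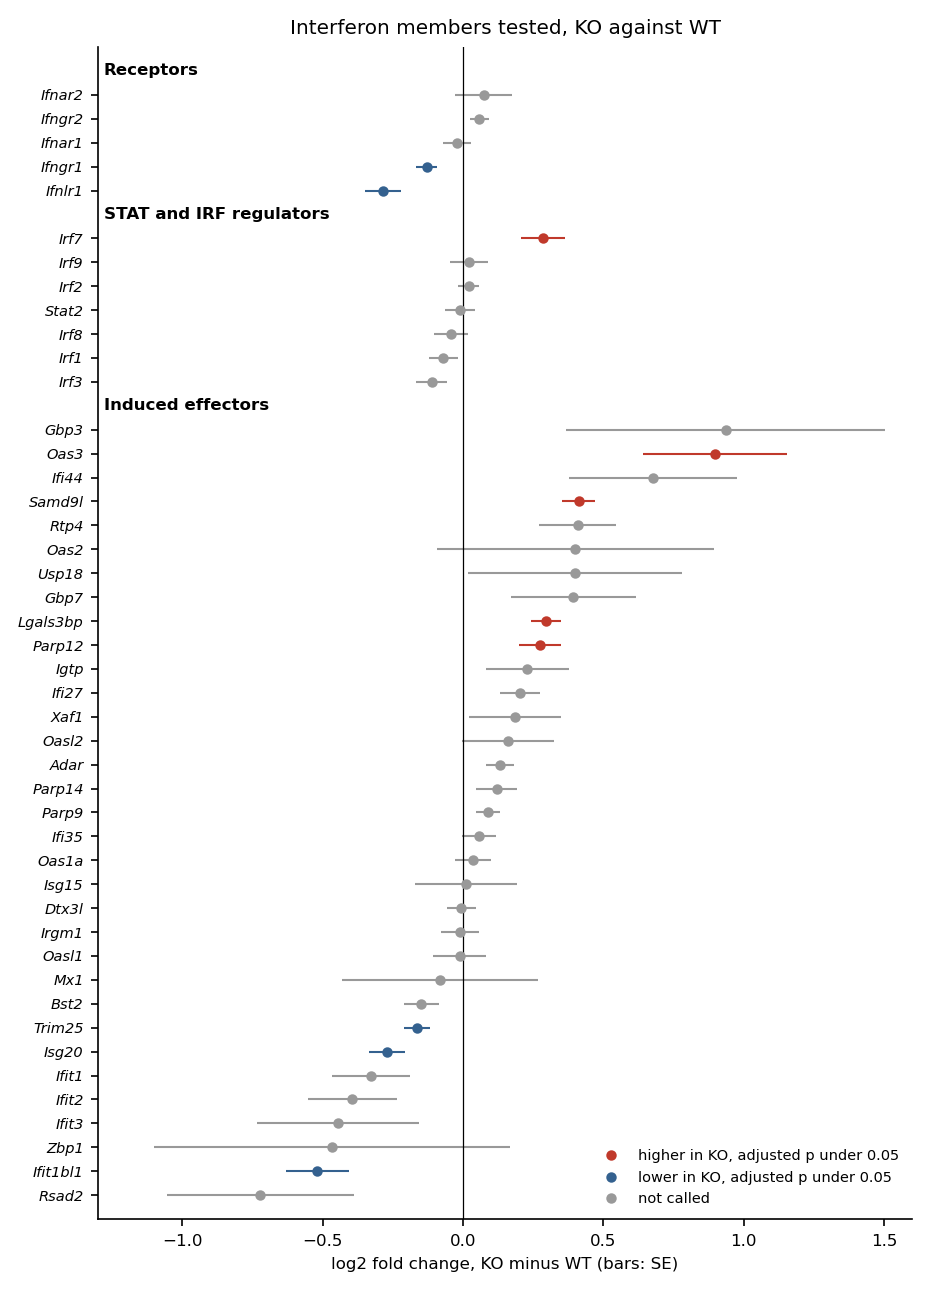
Fitted log2 ratio, KO over WT, of the 45 tested members (points, with bars for the SE), arranged by role and coloured by call. Receptors and regulators lie within 0.29 of 0, and effectors fan out from -0.72 to 0.94 with wider bars.

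Among the receptors, the type III chain was lower in KO. Ifnlr1 (chr4:135686457-135708181, GRCm38 as are all positions here), which gives the type III receptor its specificity, had 22.5, 20.6, 19.3 and 19.9 CPM in KO, against 25.2, 24.3, 23.7 and 27.0 CPM in WT. Every KO library was below every WT library (log2 ratio -0.29 ± 0.063, adjusted p = 0.00779, edgeR, ± SE here and elsewhere). The call held on leaving out each library in turn (adjusted p 0.00513 to 0.0345). Its partner chain gene Il10rb, which also serves IL-22 and IL-10 and is not a member, had 78.7 to 79.5 CPM in KO and 71.1 to 75.0 CPM in WT. These ranges did not overlap, and Il10rb was not called (log2 ratio 0.11 ± 0.040, adjusted p = 0.0791).

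Of the type II receptor, the ligand-binding chain was called and the signal-transducing chain was not. Ifngr1 (chr10:19591949-19610229) had 179.5, 180.5, 171 and 179.9 CPM in KO, against 196, 198, 194 and 188 CPM in WT. All KO libraries were below all WT libraries (log2 ratio -0.13 ± 0.038, adjusted p = 0.0328, edgeR). The call was lost on leaving out any 1 of KO 5 (0.0765), KO 6 (0.0572), KO 7 (0.117), KO 8 (0.0834), WT 13 (0.0878) and WT 14 (0.0679), and with no filter on low counts (0.0548). Ifngr2 (chr16:91547059-91564007) had 249, 249, 246 and 246 CPM in KO, against 235, 242, 237 and 235 CPM in WT. Here all KO libraries were above all WT libraries, by a margin that did not pass the test (log2 ratio 0.058 ± 0.034, adjusted p = 0.298).

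Neither chain of the type I receptor passed the test. Ifnar1 had 58.1, 54.6, 57.5 and 54.6 CPM in KO, against 61.4, 55.1, 55.3 and 56.1 CPM in WT (log2 ratio -0.023 ± 0.050, adjusted p = 0.818, edgeR). Ifnar2 had 10.5, 11.0, 10.8 and 11.1 CPM in KO, against 8.34, 12.3, 9.65 and 10.8 CPM in WT (log2 ratio 0.074 ± 0.10, adjusted p = 0.694, edgeR). The genotypes overlapped for both genes, and the WT libraries spread more widely than the KO libraries for Ifnar2. Ifnar2, Il10rb, Ifnar1 and Ifngr2 follow one another on chromosome 16, from 91372783 to 91564007, and none of the 4 was called.

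Of the regulators, Irf7 was called. Irf7 (chr7:141263183-141266499) encodes a factor that amplifies type I interferon production and is itself induced by interferon. It had 24.2, 27.2, 26.1 and 24.3 CPM in KO, against 18.3, 23.5, 19.2 and 22.4 CPM in WT. The KO libraries lay above all WT libraries, with WT 14 close to KO 5 (log2 ratio 0.29 ± 0.078, adjusted p = 0.0249, edgeR). Its call was lost on leaving out any 1 of KO 6 (0.0726), KO 7 (0.0716), WT 13 (0.0825) and WT 15 (0.0505). In GENCODE M21, 45 exon bases of Irf7 (1.19% of them) overlap Phrf1 on the opposite strand. The sources used here do not say whether counting used strand. Some members share more of their exon bases with another gene. On the same strand these include Rtp4 (13.9%, Gm45338), Gbp7 (11.3%, Gm43802), Ifnar2 (9.46%, Gm21970) and Igtp (8.01%, Irgm2). On the opposite strand Ifi35 shares 16.8% with Gm11626.

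The other 6 regulators were not called and their libraries overlapped. Stat2, which encodes the partner of IRF9 at the response element, had 27.2, 29.2, 27.3 and 26.4 CPM in KO, against 27.7, 29.5, 26.5 and 26.9 CPM in WT (log2 ratio -0.010 ± 0.054, adjusted p = 0.934, edgeR). Irf9, whose protein gives that complex its DNA contact, had 20.0, 21.8, 20.4 and 20.4 CPM in KO, against 18.4, 22.9, 19.8 and 20.0 CPM in WT (log2 ratio 0.021 ± 0.068, adjusted p = 0.884, edgeR). For both genes the highest library was WT 14, and the KO libraries lay within the WT range or at its edge. Irf1, an activator induced strongly by type II interferon, had 46.0, 49.5, 45.1 and 43.9 CPM in KO, against 49.7, 49.4, 45.8 and 48.3 CPM in WT (log2 ratio -0.071 ± 0.051, adjusted p = 0.406, edgeR). Irf2, which opposes IRF1 at shared sites, had 108, 104, 105 and 109 CPM in KO, against 105, 104, 105 and 107 CPM in WT (log2 ratio 0.020 ± 0.039, adjusted p = 0.797, edgeR). By TPM, Irf2 was the most abundant regulator. Irf3, whose protein is switched on by nucleic acid sensors, had 30.7, 29.9, 28.4 and 28.8 CPM in KO, against 30.6, 34.2, 29.6 and 32.5 CPM in WT (log2 ratio -0.11 ± 0.056, adjusted p = 0.214, edgeR). Irf8, best known from blood cells, had 31.9, 30.7, 33.5 and 33.1 CPM in KO, against 30.4, 36.2, 32.0 and 34.2 CPM in WT (log2 ratio -0.042 ± 0.059, adjusted p = 0.703, edgeR). Neither gene separated the genotypes.

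Among IFIT, OAS and MX genes, whose proteins bind foreign RNA or trap viral particles, 1 of 10 tested was higher and 1 lower. This is 20% called, beside 15.9% of all genes tested. Ifit1bl1 (chr19:34592888-34662981), a mouse relative of Ifit1, had 23.8, 29.9, 20.4 and 24.1 CPM in KO, against 32.6, 38.9, 39.7 and 29.0 CPM in WT. KO 6 was above WT 16, and the other KO libraries were below all WT libraries (log2 ratio -0.52 ± 0.11, adjusted p = 0.00660, edgeR). Without KO 6 the log2 ratio was -0.63, and the call held on leaving out each library in turn (adjusted p 0.00194 to 0.0266). The RefSeq span of Ifit1bl1 encloses Ifit1, while in GENCODE M21 neither gene shares exon bases with another gene. Reads of such similar genes may be split between copies, so these values are uncertain.

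The other IFIT genes were not called. Ifit1 had 3.04, 4.36, 2.98 and 2.78 CPM in KO, against 4.11, 4.39, 4.05 and 3.94 CPM in WT. KO 6 sat among the WT libraries and the other KO libraries lay below all of them (log2 ratio -0.33 ± 0.14, adjusted p = 0.137, edgeR). Without KO 6 it was called lower (log2 ratio -0.49, adjusted p = 0.0135). Ifit2 had 3.49, 3.37, 3.98 and 3.00 CPM in KO, against 4.66, 3.56, 6.01 and 3.89 CPM in WT. The genotypes overlapped for it (log2 ratio -0.39 ± 0.16, adjusted p = 0.112, edgeR), and it was called lower without WT 14 (adjusted p = 0.0417). Ifit3 had 1.46, 1.90, 0.995 and 0.970 CPM in KO, against 1.07, 1.62, 2.86 and 1.66 CPM in WT, again with overlap (log2 ratio -0.45 ± 0.29, adjusted p = 0.343).

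Oas3 (chr5:120753098-120777684), which encodes the largest of the oligoadenylate synthases that activate RNase L, was higher in KO. It had 54, 110, 107 and 67 counts in KO, against 23, 53, 51 and 44 counts in WT. In scaled terms this was 1.27, 2.27, 2.26 and 1.44 CPM in KO, against 0.549, 1.07, 1.09 and 1.18 CPM in WT. The lowest KO library was just above the highest WT library, and WT 13 was well below the other WT libraries (log2 ratio 0.90 ± 0.26, adjusted p = 0.0304, edgeR). The call was lost on leaving out any 1 of KO 6 (0.0895), KO 7 (0.103) and WT 13 (0.0803). Oas1a, a smaller synthase gene of the same cluster, had 25.2 to 26.6 CPM in KO and 22.6 to 27.9 CPM in WT. Oasl1, known in the mouse to restrain Irf7 translation, had 23.2 to 29.2 CPM in KO and 21.5 to 29.1 CPM in WT. Neither was called (log2 ratio 0.036 ± 0.064, adjusted p = 0.770 for Oas1a and log2 ratio -0.012 ± 0.096, adjusted p = 0.959 for Oasl1, edgeR), nor were Oas2, Oasl2 and Mx1. These 3 were low, with 2.74 to 3.28 CPM in KO and 1.85 to 3.22 CPM in WT for Oasl2, 0.142 to 0.578 CPM in KO and 0.101 to 0.358 CPM in WT for Oas2, and 0.189 to 0.330 CPM in KO and 0.202 to 0.358 CPM in WT for Mx1. Mx2 was not tested, with 8, 8, 9 and 14 counts in KO, against 5, 0, 6 and 0 counts in WT.

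Of 6 other restriction factors, 1 was higher and 1 lower, or 33.3% called beside 15.9% of all genes tested. Samd9l (chr6:3372257-3399571), an antiviral and growth-restraining gene, had 133, 132, 139 and 143 CPM in KO, against 95.8, 101, 117 and 96.5 CPM in WT. Every KO library exceeded every WT library, with WT 15 the closest, and its adjusted p was the smallest of the members (log2 ratio 0.41 ± 0.060, adjusted p = 4.7e-04, edgeR). The call held on leaving out each library in turn (adjusted p 1.9e-05 to 0.00307). Isg20 (chr7:78913396-78920396), an RNA exonuclease gene, had 22.3, 24.9, 21.8 and 20.4 CPM in KO, against 27.5, 27.1, 25.2 and 27.8 CPM in WT. KO lay below WT in all libraries, with KO 6 and WT 15 nearly touching (log2 ratio -0.27 ± 0.065, adjusted p = 0.0123, edgeR). That call was lost on leaving out KO 8 (0.0530).

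Bst2 and Adar separated the genotypes without passing the test. Bst2, which encodes the virion tether tetherin, had 14.0 to 15.8 CPM in KO and 16.1 to 17.6 CPM in WT (log2 ratio -0.15 ± 0.063, adjusted p = 0.132, edgeR). Adar, which encodes an RNA-editing enzyme and shares 1365 exon bases with Chrnb2 on the opposite strand, had 42.8 to 45.7 CPM in KO and 37.9 to 42.2 CPM in WT (log2 ratio 0.13 ± 0.049, adjusted p = 0.0861, edgeR). Rsad2, which encodes viperin, had 0.339 to 0.874 CPM in KO and 0.644 to 1.34 CPM in WT (log2 ratio -0.72 ± 0.33, adjusted p = 0.173, edgeR). Zbp1, which encodes a sensor of left-handed nucleic acid, had 7, 0, 11 and 18 counts in KO, against 12, 23, 6 and 7 counts in WT. The last pair overlapped between genotypes.

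Among genes of the ISG15 system, ubiquitin ligases and PARPs, 1 of 7 was higher and 1 lower. The called share was 28.6%, beside 15.9% of all genes tested. Parp12 (chr6:39086412-39118349), whose protein adds ADP-ribose and restrains RNA viruses, had 17.8, 16.4, 19.2 and 16.8 CPM in KO, against 14.3, 14.8, 15.9 and 12.8 CPM in WT. The genotypes did not overlap (log2 ratio 0.27 ± 0.074, adjusted p = 0.0238, edgeR), and the call was lost on leaving out any 1 of KO 5 (0.0650), KO 7 (0.0858), WT 13 (0.0628) and WT 16 (0.0564). Trim25 (chr11:88999403-89020294), a ligase that acts on the RNA sensor RIG-I, had 146, 138, 134 and 137 CPM in KO, against 165, 152, 155 and 149 CPM in WT. All KO libraries were below all WT libraries (log2 ratio -0.16 ± 0.045, adjusted p = 0.0264, edgeR). Its call was lost on leaving out any 1 of KO 6 (0.0619), KO 7 (0.0938), KO 8 (0.0872) and WT 13 (0.0897).

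Parp9 and Dtx3l encode the partners of one complex, and their genes share 458 exon bases on opposite strands of chromosome 16. Parp9 had 52.8 to 54.2 CPM in KO and 48.0 to 51.6 CPM in WT, with no overlap and no call (log2 ratio 0.090 ± 0.043, adjusted p = 0.190, edgeR). Dtx3l averaged 51.7 ± 1.49 CPM over the KO libraries, against 51.8 ± 3.21 CPM (SD) over the WT libraries (log2 ratio -0.0069 ± 0.051, adjusted p = 0.955, edgeR), and their neighbour Parp14 had 22.4 to 27.1 CPM in KO and 20.1 to 24.5 CPM in WT (log2 ratio 0.12 ± 0.072, adjusted p = 0.304, edgeR). Both overlapped. Isg15 had 49, 57, 49 and 65 counts in KO, against 49, 55, 65 and 39 counts in WT, and its protease gene Usp18 had 22, 13, 12 and 11 counts in KO, against 14, 13, 9 and 6 counts in WT. Neither of these low genes was called.

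None of the 4 tested genes of guanylate-binding proteins and immunity-related GTPases, which act on the vacuoles of intracellular microbes, was called by edgeR with all libraries (1 without WT 15). The called share over all genes tested was 15.9%. Irgm1 was the most abundant, at 16.5 to 19.5 CPM in KO and 17.1 to 19.2 CPM in WT (log2 ratio -0.0097 ± 0.068, adjusted p = 0.952). Igtp had 2.69 to 3.62 CPM in KO and 2.19 to 3.27 CPM in WT (log2 ratio 0.23 ± 0.15, adjusted p = 0.339). Both overlapped between genotypes. Gbp7 had 1.80 to 2.13 CPM in KO and 0.993 to 2.17 CPM in WT (log2 ratio 0.39 ± 0.22, adjusted p = 0.274, and 0.0451 without WT 15). Gbp3 had 13, 29, 18 and 8 counts in KO, against 8, 18, 8 and 0 counts in WT. Gbp2 and Iigp1 were not tested. Gbp2 had 9, 9, 27 and 0 counts in KO, against 0, 18, 14 and 7 counts in WT, and Iigp1 had 8, 0, 0 and 0 counts in KO, against 0, 2, 10 and 0 counts in WT.

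The last set of 6 effectors holds those not placed in the other sets. All 6 log2 ratios were above 0, from 0.056 (Ifi35) to 0.68 (Ifi44), as were those of 7418 of all 14945 genes tested. Of the 6, 1 was called, or 16.7% beside 15.9% of all genes tested. Lgals3bp (chr11:118392747-118401959) had 317, 313, 329.8 and 342 CPM in KO, against 251, 289, 247 and 271 CPM in WT. Every KO library was above every WT library (log2 ratio 0.30 ± 0.052, adjusted p = 0.00172, edgeR), and the call held on leaving out each library in turn (adjusted p 3.7e-04 to 0.0112). Ifi27, which encodes a mitochondrial membrane protein, had 45.4, 51.5, 53.0 and 47.0 CPM in KO, against 38.3, 46.6, 39.9 and 46.0 CPM in WT (log2 ratio 0.20 ± 0.071, adjusted p = 0.0735, edgeR). Rtp4, which encodes a chaperone of receptor transport, had 5.69, 5.39, 4.68 and 5.20 CPM in KO, against 3.37, 4.43, 4.77 and 3.08 CPM in WT (log2 ratio 0.41 ± 0.14, adjusted p = 0.0583, edgeR). Both overlapped between genotypes and were not called. Ifi27 passed without WT 14 (0.0358), and Rtp4 passed without WT 14 (0.0451) or WT 15 (0.0183). DESeq2 called both higher in KO (adjusted p = 0.0405 and 0.0318). Ifi44, a cytosolic antiviral gene, had 0.931 to 1.44 CPM in KO and 0.295 to 0.980 CPM in WT (log2 ratio 0.68 ± 0.30, adjusted p = 0.154, edgeR), and Ifi35 had 16.8 to 19.1 CPM in KO and 16.6 to 17.8 CPM in WT (log2 ratio 0.056 ± 0.060, adjusted p = 0.606, edgeR). Xaf1, a gene linked to cell death, was not called, at 2.62 to 3.71 CPM in KO and 2.22 to 3.40 CPM in WT (log2 ratio 0.19 ± 0.16, adjusted p = 0.510, edgeR).

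**Figure D3:**
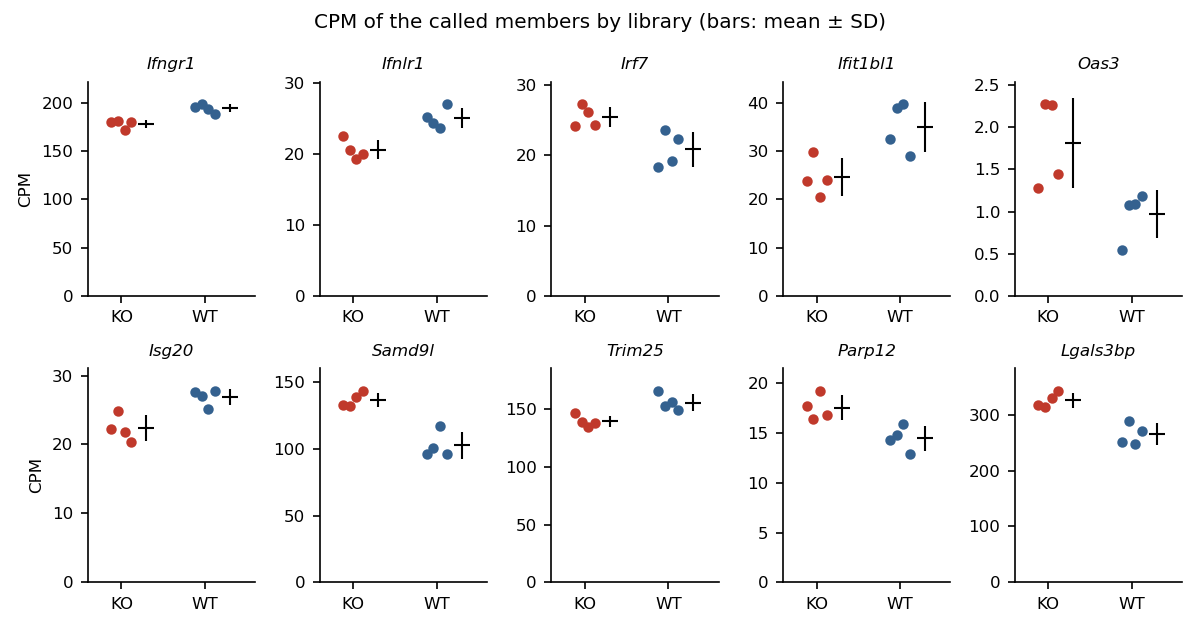
CPM of the 10 called members in each library, KO points in red left of WT points in blue in replicate order, with the mean and SD of 4 libraries in black and axes starting at 0. The genotypes overlap for Ifit1bl1, where the highest KO library has 29.9 CPM and the lowest WT library 29.0 CPM, and not for the other 9 genes.

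Averaged over a role, libraries of the same genotype differed from one another. The mean log2 CPM of each role was taken after centring every gene on its 8 libraries. For receptors it was 0.0022, -0.024, -0.051 and -0.036 in KO, against -0.0062, 0.077, -0.013 and 0.052 in WT. For regulators it ran from -0.016 to 0.050 in KO and from -0.072 (WT 13) to 0.092 (WT 14) in WT. For effectors it was 0.027, 0.099, 0.052 and 0.0011 in KO, against -0.023, 0.012, 0.054 and -0.22 in WT. The genotypes overlapped for every role. Of the 33 tested effectors 7 had their highest CPM in KO 6, against 2 to 6 in each other library. In WT 16, the shallowest library, 10 had their lowest, against 6 in WT 13 and 1 to 5 in each of the others. The part of depth in this was not tested.

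A few low effectors were highest in WT 15, a set picked after its values were seen. WT 15 held the highest CPM of 6 of the 33 tested effectors, as did KO 7, with 7 in KO 6. Gbp7, Ifit1bl1 and Dtx3l were also highest in WT 15. Ifit2, Ifit3 and Rsad2 had 282, 134 and 63 counts there, or 6.01, 2.86 and 1.34 CPM. Ifit1 was not highest in that library, at 4.05 CPM. Isg15 had 65 counts both in WT 15 and in KO 8, at 1.385 and 1.401 CPM.

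**Figure D4:**
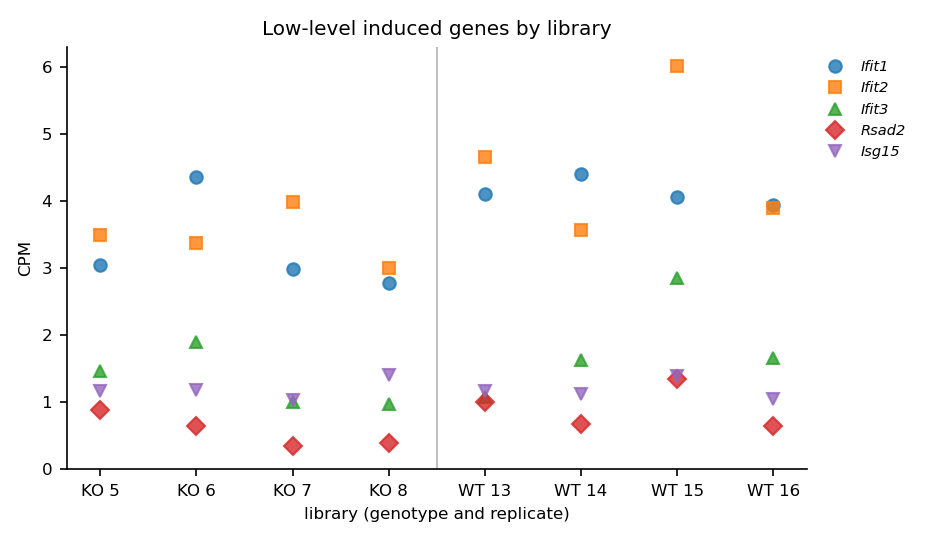
CPM of Ifit1, Ifit2, Ifit3, Rsad2 and Isg15 in each library, the 4 KO libraries left of the 4 WT libraries. Ifit2 (6.01 CPM), Ifit3 (2.86 CPM) and Rsad2 (1.34 CPM) peak in WT 15, while Ifit1 in KO 6 (4.36 CPM) lies among its WT values.

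Around the members, the list of kinases, shared chain and feedback genes included a gene that was lower in KO. Socs3, a feedback inhibitor gene of cytokine signalling, had 6.16 to 8.37 CPM in KO and 11.0 to 13.7 CPM in WT, with KO below WT (log2 ratio -0.70 ± 0.11, adjusted p = 6.8e-04, edgeR). The kinase genes Jak1, Jak2 and Tyk2, named after their values were seen, were not called (adjusted p = 0.632, 0.992 and 0.693, edgeR).

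Of 12 tested nucleic acid sensing genes 2 were higher and 2 lower, or 33.3% called beside 15.9% of all genes tested. Tmem173, which encodes the adaptor STING, had 23.4 to 24.3 CPM in KO and 28.7 to 30.8 CPM in WT (log2 ratio -0.33 ± 0.048, adjusted p = 4.9e-04, edgeR). Ikbke, a kinase gene of IRF3 activation, had 42.4 to 45.8 CPM in KO and 35.8 to 40.5 CPM in WT (log2 ratio 0.22 ± 0.053, adjusted p = 0.0135, edgeR), and its call was lost on leaving out KO 8 (0.0558). Tlr3, which encodes a receptor for double-stranded RNA, had 22.5 to 24.2 CPM in KO and 17.5 to 22.1 CPM in WT (log2 ratio 0.23 ± 0.069, adjusted p = 0.0408, edgeR), and its call was lost on leaving out any 1 of KO 5 (0.113), KO 6 (0.0649), KO 7 (0.0643), KO 8 (0.117), WT 13 (0.113) and WT 16 (0.0891). None of these 3 genes overlapped between genotypes. The fourth called gene, Ticam1, which encodes the adaptor of TLR3, had 41.2 to 49.3 CPM in KO and 47.7 to 56.3 CPM in WT with overlap (log2 ratio -0.21 ± 0.065, adjusted p = 0.0462, edgeR), and was named after its values were seen.

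Of 42 other induced genes listed, 33 were tested, with 5 higher, 3 lower and a median log2 ratio of 0.14, and the called share of 24.2% stands beside the same 15.9%. Eif2ak2, which was not called, is counted both here and among the nucleic acid sensing genes. Uba7, which encodes the activating enzyme of ISG15, had 9.10 to 9.99 CPM in KO and 6.40 to 8.05 CPM in WT (log2 ratio 0.45 ± 0.086, adjusted p = 0.00329, edgeR). Gbp8 had 3.90 to 4.01 CPM in KO and 2.43 to 3.10 CPM in WT (log2 ratio 0.53 ± 0.11, adjusted p = 0.00612, edgeR). Ddx60, a helicase gene, had 2.05 to 2.62 CPM in KO and 1.29 to 1.88 CPM in WT (log2 ratio 0.64 ± 0.16, adjusted p = 0.0171, edgeR), and its call was lost on leaving out KO 7 (0.0604). All 3 had every KO library above every WT library. The 3 genes called lower, named after their values were seen, were Ifitm2, Tor3a and Ifitm3. Their log2 ratios were -0.20 ± 0.054, -0.22 ± 0.068 and -0.59 ± 0.18 (adjusted p = 0.0210, 0.0412 and 0.0429, edgeR). Every KO library was below every WT library for Ifitm2 and Tor3a, and Ifitm3 overlapped.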

How the data were processed

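RNA was sequenced from 4 KO and 4 WT organoid libraries, stranded and made from mRNA, per the labels' protocols. The authors deposited 1 table with raw counts, FPKM and TPM per gene. The submitters' processing notes name TopHat, TopHat2, Bowtie2 and HTSeq with build GRCm38, without versions or roles. TPM, scaled by the authors for length and depth, describes levels between genes, and the deposited FPKM was not used. Between 673 and 772 genes per library had 2 counts and 548 to 622 had 1. Whether each mate of a read pair was counted was not tested.

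The members and lists were chosen with earlier results of these data known. Low counts were removed by filterByExpr, libraries scaled by TMM (also used for CPM), and 14945 genes tested by edgeR 4.0.16 (quasi-likelihood, R 4.3.3). P-values were adjusted by Benjamini and Hochberg's method over all of them, and calls made below 0.05. The SE is the absolute log2 ratio divided by the root of its F statistic. The edgeR step was tested on simulated data. Values by library are given for called members, receptors, regulators and the 2 most abundant effectors, and other members by ranges or counts; where more is shown, it was chosen after values were seen. In each other pathway list, up to 3 genes with the smallest adjusted p are named. One gene of these lists is not reported here. Library numbers are not shared between genotypes, so samples were not paired. Libraries within a genotype differed beyond counting noise (chi-square per degree of freedom 4.78 to 10.2 within KO and 10.5 to 23.4 within WT). Alternatives used other scalings and filters, DESeq2 1.42.0, limma 3.58.1 and leaving out each library. Positions and promoters come from RefSeq, exon overlaps from GENCODE M21.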

Additional observations from a re-analysis of the deposited data

Results flagged for a closer look

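Within a genotype, a library was singled out where its gap to the nearest other library, as a share of the range of the 4 libraries, exceeded Dixon's 95% critical value. Among 90 sets of 4 libraries (45 tested members in each genotype) 5 met this, where chance gives about 1 in 20. Ifngr1 was lowest in KO 7, at 171 CPM against 179 to 181 CPM in the other KO libraries. Ifit1 was highest in KO 6, at 4.36 CPM against 2.78 to 3.05 CPM. Usp18 was highest in KO 5, at 0.519 CPM against 0.237 to 0.268 CPM. Ifnar1 was highest in WT 13, at 61.4 CPM against 55.1 to 56.1 CPM in the other WT libraries. Oas3 was lowest in WT 13, at 0.549 CPM against 1.07 to 1.18 CPM.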

How the results depend on the processing

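The 10 called members kept their direction under all 15 alternatives (8 leaving out 1 library, 7 others). The calls of Ifnlr1, Ifit1bl1, Samd9l and Lgals3bp held in every one. Under the 7 others (DESeq2 size factors, upper-quartile factors, library totals, no low-count filter, at least 1 CPM in 4 libraries, DESeq2, limma-voom) 9 of the 10 calls held, and that of Ifngr1 was lost with no filter. At an adjusted p under 0.01, 2 members were higher and 2 lower, and 562 of all genes were higher and 597 lower. Leaving out 1 library gave 2 to 7 members higher and 2 to 5 lower, and 696 to 1386 of all genes higher and 724 to 1404 lower. Members higher numbered 3 without KO 6 and 2 without KO 7 or WT 13. Members lower numbered 2 without KO 8 and 3 without KO 7 or WT 13. The cause was not tested. The log2 ratio of 12 uncalled members changed sign on leaving out 1 library, running from -0.040 to 0.017 for Ifnar1, -0.012 to 0.18 for Ifnar2, -0.039 to 0.023 for Stat2, -0.081 to 0.0032 for Irf8 and -0.022 to 0.087 for Irf9. Among effectors it ran from -0.012 to 0.088 for Oas1a, -0.057 to 0.64 for Oas2, -0.088 to 0.053 for Oasl1, -0.25 to 0.098 for Mx1, -0.074 to 0.098 for Isg15, -0.041 to 0.018 for Dtx3l and -0.048 to 0.029 for Irgm1. Leaving out libraries for genes outside the members was chosen after seeing the data. No paired analysis was possible because the genotypes share no replicate numbers. Of the tested effectors 17 averaged under 5 CPM. Oas3 is one of them and was called. Ifit1, Ifit2 and Gbp7 were called in 1 alternative each and Rtp4 in 3, so a difference that did not pass is not shown to be absent.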

Other observations

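The 43 genes with at least 10 counts in KO 6 and 0 in the other libraries also included the predicted gene Gm15564 (3070 counts), the myeloid genes Chil3 (54) and Clec7a (17), the antigen presentation gene H2-Aa (35), Lamp3 (34), the endothelial genes Cdh5 (30) and Kdr (14), and the haemoglobin genes Hbb-bs (43) and Hba-a1 (27). Among the members, Ifit1 was called without KO 6 (edgeR adjusted p = 0.0135) and not with it, while Irf7, Oas3, Trim25 and Ifngr1 were called with it and not without it. The part of these transcripts in the differences between genotypes was not tested.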
